A study of Mus musculus with 35 samples.

Results

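Genes of the interleukin-1 (IL-1) family were followed in primary mouse cardiac fibroblasts (CFs) and in mouse hearts. Ligands were Il1a, Il1b, Il33 and Il18, the antagonist was Il1rn, and the receptor chains were Il1r1, Il1rap and Il1rl1. They were taken by gene symbol, and they are 8 of the 55487 genes listed in each of 4 RNA-Seq tables. The study lowered IAMP, a micropeptide encoded in mice by 4930523C07Rik, in CFs of adult mice with the siRNAs IAMP-siR-1 (siR-1) or IAMP-siR-2 (siR-2), against a Scrambled siRNA, to ask how IAMP bears on inflammation. The CFs were untreated, given IL-17 or given TGF-β, with 3 libraries in each of 9 groups. IL-17 cells had 24 h of siRNA and 24 h of IL-17, and the times of the other CFs were not found in the sources used here. Hearts came from 8-week-old C57BL/6 mice at baseline. Of these mice 4 were homozygous for a CRISPR-Cas9 frameshift allele of IAMP (KO) and 4 were heterozygous (Het), so the controls also carried a mutated allele. The CFs were adherent primary cultures made by enzymatic digestion, and nothing says that replicates were separate cultures, so p-values measure only the spread between these libraries, which may be technical. A CF library held 104139670 to 119232309 estimated counts and a heart 23497027 to 23857313 counts.

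IL-1α (Il1a) and IL-1β (Il1b) are inflammatory ligands of the receptor IL1R1 (Il1r1), and IL1RA (Il1rn) is an antagonist that occupies the same receptor without signaling. IL-33 (Il33) binds ST2 (Il1rl1), and IL1R1 and ST2 both need the co-receptor IL1RAP (Il1rap) to recruit MyD88 and the IRAK kinases. IL-1α and IL-33 are known as alarmins released by damaged cells, whereas IL-1β and IL-18 (Il18) are cut to their active forms by caspase-1 in inflammasomes. Fibroblasts of the heart are known to answer IL-1 with chemokines, IL-6 and matrix metalloproteinases.

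Promoter sequence is shown for Il1a, Il33 and Il1r1, the members that rose with IL-17, and for Il1rap, the member with the widest gap between the siRNAs in untreated cells after Il33. RefSeq's table for GRCm38.p6 held starts of 8 of the 8 genes, 13 in all, and the 250 bases before a start are printed 5′ to 3′ on the gene's strand. Capitals mark matches on either strand to the AP-1 letters TGANTCA, the C/EBP letters TTNNGNAAT or the core ACGTG of the hypoxia response element. For Il33 and Il1r1 the first of 2 listed starts is used.
Il1a, chr2:129309973-129310222, minus strand: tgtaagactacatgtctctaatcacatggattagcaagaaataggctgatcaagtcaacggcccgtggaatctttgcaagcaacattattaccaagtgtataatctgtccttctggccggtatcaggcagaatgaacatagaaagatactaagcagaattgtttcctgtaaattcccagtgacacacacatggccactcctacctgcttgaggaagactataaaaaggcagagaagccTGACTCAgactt
Il33, chr19:29924863-29925112, plus strand: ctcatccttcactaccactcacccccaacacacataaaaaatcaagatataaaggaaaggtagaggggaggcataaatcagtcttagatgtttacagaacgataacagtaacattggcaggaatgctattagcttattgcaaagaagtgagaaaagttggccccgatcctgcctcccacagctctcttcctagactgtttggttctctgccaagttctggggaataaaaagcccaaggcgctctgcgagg
Il1r1, chr1:40224830-40225079, plus strand: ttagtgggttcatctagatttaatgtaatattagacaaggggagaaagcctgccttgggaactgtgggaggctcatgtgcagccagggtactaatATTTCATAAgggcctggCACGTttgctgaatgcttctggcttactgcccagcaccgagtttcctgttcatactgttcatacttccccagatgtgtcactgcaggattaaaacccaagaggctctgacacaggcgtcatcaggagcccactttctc
Il1rap, chr16:26581455-26581704, plus strand: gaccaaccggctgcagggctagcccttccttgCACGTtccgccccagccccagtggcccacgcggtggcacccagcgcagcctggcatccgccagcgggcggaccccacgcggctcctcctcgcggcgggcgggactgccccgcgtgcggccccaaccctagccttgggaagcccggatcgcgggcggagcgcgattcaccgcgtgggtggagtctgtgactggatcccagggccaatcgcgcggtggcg

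The AP-1 match of Il1a began 12 bases before the start. The Il1r1 window held a C/EBP match 155 bases and a hypoxia core 138 bases before the start, the Il1rap window a hypoxia core 218 bases before it, and the Il33 window no match. Over 32851 promoter windows of the same length, 6.75% held the AP-1 letters, 10.2% the C/EBP letters and 16.6% the hypoxia core. Of the 13 windows of the family, 2 held AP-1, 5 held C/EBP and 2 held the hypoxia core, and matches did not overlap. The κB consensus was in 0 of the 13 windows and in 0.356% of all windows, which says only that these letters are not there. The Il1rap window was 74.4% G and C with 30 CG pairs, against medians of 52.4% and 6 over all windows, and the Il1a window was 42.4% G and C with 3 CG pairs.

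In the GRCm38 annotation (GENCODE vM21), Il1a (chr2:129299610-129309972, minus strand) and Il1b (chr2:129364570-129371139, minus strand) are neighbours. Il1rn (chr2:24336853-24351494, plus strand) lies elsewhere on that chromosome, Il33 is at chr19:29925114-29960718 and Il18 at chr9:50554827-50581840, both on the plus strand. Il1r1 (chr1:40225080-40317257) and Il1rl1 (chr1:40429570-40465415) lie in a run of receptor genes on the plus strand in the order Il1r2, Il1r1, Il1rl2, Il1rl1, Il18r1 and Il18rap, and Il1rap is apart at chr16:26581704-26730117. Soluble and membrane forms of ST2 and of IL1RAP come from the same genes and were not separated here. The opposite-strand neighbours Gm14023 at Il1a and Gm20319 at Il1rap reached means of at most 0.23 and 0.479 CPM (estimated counts per 1000000) in the CF groups, and Bco2, opposite Il18, reached 0.578 CPM.

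The siRNAs lowered their target in every table. In untreated CFs 4930523C07Rik stood at 22.0, 22.7 and 25.7 CPM with Scrambled, at 2.52, 3.51 and 2.98 CPM with siR-1 and at 1.77, 1.87 and 1.89 CPM with siR-2. The groups did not overlap, and the log2 fold changes were -2.97 and -3.69 (edgeR adjusted p = 3.41e-12 and 1.31e-13). With IL-17 the means were 18.7, 2.61 and 1.75 CPM, and with TGF-β 20.4, 4.33 and 3.26 CPM, in the order Scrambled, siR-1 and siR-2. The knockdown was weaker with TGF-β than in untreated cells, by 0.73 on the log2 scale with siR-1 (SE 0.15, edgeR adjusted p = 0.00113, short of a 2-fold difference) and by 1.03 with siR-2 (SE 0.16, edgeR adjusted p = 1.70e-05), and its part in the differences between these tables was not tested. In hearts the transcript averaged 17.0 ± 1.25 CPM in the Het group, against 16.0 ± 0.976 CPM in KO mice (SD, n = 4; edgeR adjusted p = 1.0), which does not check the labels, since a frameshift need not lower the RNA.

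Markers of other cells were measured alongside. All 9 fibroblast markers were above 3 read pairs in every group, with a summed mean of 13449 CPM in untreated Scrambled CFs against 807 CPM in Het hearts, led by Col1a1 at 3743 CPM and Col1a2 at 3482 CPM. In untreated, IL-17 and TGF-β Scrambled CFs, the 12 macrophage and monocyte markers summed to 67.7, 67.5 and 168 CPM, of which Lyz2 made up 39.1, 37.5 and 113 CPM, and Csf1r was next in untreated cells at 9.43 CPM. The 8 endothelial markers summed to 74.7, 70.8 and 126 CPM in the same groups, with Cdh5 at 19.2 CPM and Tek at 16.8 CPM in untreated cells. The 8 mesothelial markers had a sum of 148, 112 and 44.4 CPM, led in untreated cells by Lrrn4 at 54.3 CPM and Upk3b at 45.4 CPM. The 8 smooth muscle and pericyte markers summed to 115, 159 and 82.5 CPM, led by Cspg4 at 58.5 CPM and Notch3 at 48.0 CPM in untreated cells. The 8 cardiomyocyte markers summed to 94.7, 72.5 and 5.76 CPM, but Tnnt2 was 93.4, 71.8 and 4.76 CPM of that, Ryr2 stood at 0.608 CPM and Myh6 at 0 in untreated Scrambled cells. The 11 lymphoid and mast cell markers summed to 54.97, 73.3 and 44.0 CPM, of which Rora made up 47.2, 64.8 and 34.6 CPM. In untreated cells Gata3 was at 4.82 CPM and Cd3e, Cd3g and Nkg7 at 0. The 8 neutrophil markers summed to 0.104, 0.197 and 3.35 CPM, where Camp led with 3.16 CPM under TGF-β and Ly6g was at 0. Members of a list did not all go with its sum. With TGF-β against untreated Scrambled cells, 21.5% of all genes tested were called. Of the 12 macrophage markers 5 were called higher (Adgre1, Cd68, Lyz2, Itgam and Cd14) and 3 lower (C1qa, C1qb and C1qc). Of the mesothelial markers 2 were called higher (Wt1 and Muc16) and 4 lower (Upk3b, Upk1b, Lrrn4 and Krt19). Of the smooth muscle and pericyte markers 3 were called higher (Cnn1, Rgs5 and Abcc9) and 1 lower (Notch3), and of the endothelial markers 3 were called higher (Tie1, Vwf and Emcn) and 1 lower (Kdr). In bulk samples, fewer cells of a type and less RNA per cell cannot be told apart.

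Several of these sums also differed between the siRNA groups. In untreated cells, in the order Scrambled, siR-1 and siR-2, the mesothelial markers summed to 148, 136 and 92.0 CPM, the smooth muscle and pericyte markers to 115, 74.4 and 60.7 CPM and the cardiomyocyte markers to 94.7, 45.4 and 30.7 CPM. Notch3 averaged 48.0, 15.8 and 10.2 CPM and Tnnt2 93.4, 44.4 and 30.0 CPM, and both were called lower with each siRNA. Over all genes, 4.76% were called with siR-1 and 10.7% with siR-2 in untreated cells. With siR-2, Lrrn4 was called lower, at 20.3 CPM. The macrophage sum was 67.7, 66.4 and 84.8 CPM, but with siR-2 1 of its 12 markers was called higher (Csf1r, at 21.1 CPM) and 1 lower (Fcgr1), and the median log2 change of the list was 0.06. The fibroblast sum was 13449, 19172 and 17540.2 CPM, of which Col3a1 made up 2928, 5740.4 and 8128 CPM. Col3a1 with siR-2 was the 1 call among the 9 fibroblast markers with either siRNA, and the median log2 change of the list was 0.13 for siR-1 and -0.15 for siR-2. With IL-17 the same order gave mesothelial sums of 112, 109.9 and 70.6 CPM, smooth muscle and pericyte sums of 159, 106 and 81.1 CPM, cardiomyocyte sums of 72.5, 34.2 and 24.2 CPM and macrophage sums of 67.5, 74.7 and 89.1 CPM. Of the macrophage markers under IL-17, Csf1r was called higher and C1qa lower with siR-1 (13.5% of all genes called). With siR-2 Csf1r was called higher and C1qa, C1qb and Fcgr1 lower (21.7%). Camp, a neutrophil marker, averaged 0.0778, 0.721 and 0.690 CPM with IL-17 and 3.16, 5.21 and 4.94 CPM with TGF-β, and was called higher with both siRNAs in both. Its IL-17 Scrambled libraries were at or under 18 estimated counts. Of the 8 neutrophil markers it was the 1 tested with IL-17 and 1 of 3 tested with TGF-β. Ly6g, Elane, Retnlg and Ngp were at 0 in every IL-17 group. With TGF-β the macrophage sums were 168, 141 and 151 CPM and the mesothelial sums 44.4, 32.3 and 27.5 CPM. Of the macrophage markers there, Adgre1 and C1qa were called lower with siR-1 (4.36% of all genes called). C1qa, C1qb and C1qc were called lower with siR-2 (7.51%), and none was called higher with either siRNA. The part of these cells in the siRNA effects described here was not tested.

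Both chains of the IL-1 receptor were the most abundant of the 8 genes in every CF group. The ligands and the antagonist were low in untreated Scrambled cells. Levels are compared between genes per kilobase of annotated exons. With siR-2 under IL-17 the ligand Il33 reached 10.3 CPM per kb, against 14.8 CPM per kb for Il1rap. In untreated Scrambled CFs Il1rap stood at 11.7 ± 0.306 CPM per kb and Il1r1 at 10.1 ± 0.314 CPM per kb (SD, n = 3). Il33 at 0.945 ± 0.258 and Il18 at 0.648 ± 0.187 CPM per kb overlapped each other. Il1a, Il1rn, Il1rl1 and Il1b followed at means of 0.0483, 0.0480, 0.0411 and 0.0131 CPM per kb, and neighbours in this order overlapped.

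The order changed with the stimulus. With IL-17 it was Il1r1 at 22.9, Il1rap at 14.1, Il33 at 2.50, Il18 at 0.659, Il1a at 0.333, Il1rn at 0.0944 and Il1rl1 at 0.0496 CPM per kb, with no overlap between neighbours, and Il1b was listed at 0. With TGF-β it was Il1rap at 10.6, Il1r1 at 5.26, Il18 at 1.83 and Il1a at 1.01 CPM per kb, then Il33 at 0.408 and Il1rn at 0.327, which overlapped, then Il1rl1 at 0.142 CPM per kb, with Il1b again at 0. In untreated CFs Il1r1 led with siR-2, at 19.2 against 12.9 CPM per kb for Il1rap, whereas Il1rap led with siR-1, at 26.5 against 16.7 CPM per kb for Il1r1, as it did with Scrambled.

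**Figure D1:**
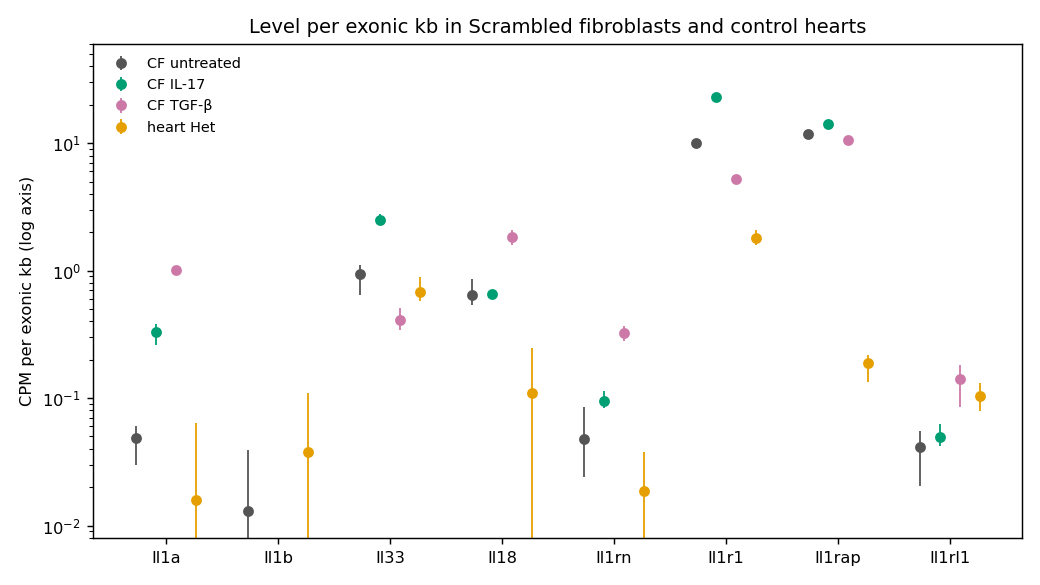
Level per kilobase of exons (log axis, CPM per kb) of the 8 genes in Scrambled CFs (n = 3 per condition) and Het hearts (n = 4), with points for means and bars from the lowest to the highest library. Means of 0 are not drawn and bars that reach 0 leave the axis; Il1rap and Il1r1 lie highest in CFs, at 11.7 and 10.1 CPM per kb in untreated cells.

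The stimuli were compared with untreated cells among Scrambled libraries. A gene was called where the quasi-likelihood test of edgeR gave a Benjamini-Hochberg value, taken over all genes tested, of 0.05 or less and the change was 2-fold or more (an absolute log2 value of 1), or 1.5-fold or more for siRNA effects within the IL-17 and TGF-β tables. With IL-17, Il1a, Il33 and Il1r1 rose, 3 of 7 members tested, against 1.39% of all genes called. With TGF-β, Il1a, Il1rn, Il18 and Il1rl1 rose and Il33 fell, 5 of 8 members tested, against 21.5% of all genes. Each condition was deposited in a table of its own, so the stimulus and the table cannot be told apart. Both comparisons share the untreated Scrambled libraries.

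The siRNAs were compared with Scrambled within each table, and the comparisons of a table share its Scrambled libraries. In untreated CFs siR-1 raised Il1rap and lowered Il18, 2 of 7 tested (4.76% of all genes called), and siR-2 lowered Il18, 1 of 7 (10.7%). With IL-17, siR-1 raised Il1a and Il1rap and lowered Il18, 3 of 7 (13.5%), and siR-2 raised Il1a and Il33 and lowered Il18, 3 of 7 (21.7%). With TGF-β, siR-1 gave 4 calls among 8 tested, all higher, for Il1a, Il33, Il1r1 and Il1b (4.36%), of which Il1b was not above the detection floor, and siR-2 raised Il1a and Il33, 2 of 8 (7.51%). Leaving out 1 TGF-β library gave 1 to 3 calls in place of the 4, with 1 left without siR-1 replicate 3 and 2 without Scrambled replicate 1, Scrambled replicate 2 or siR-1 replicate 1, and siR-2 had 0 without its replicate 1. In untreated cells, leaving out Scrambled replicate 3 gave 1 call for siR-1 and 0 for siR-2.

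**Figure D2:**
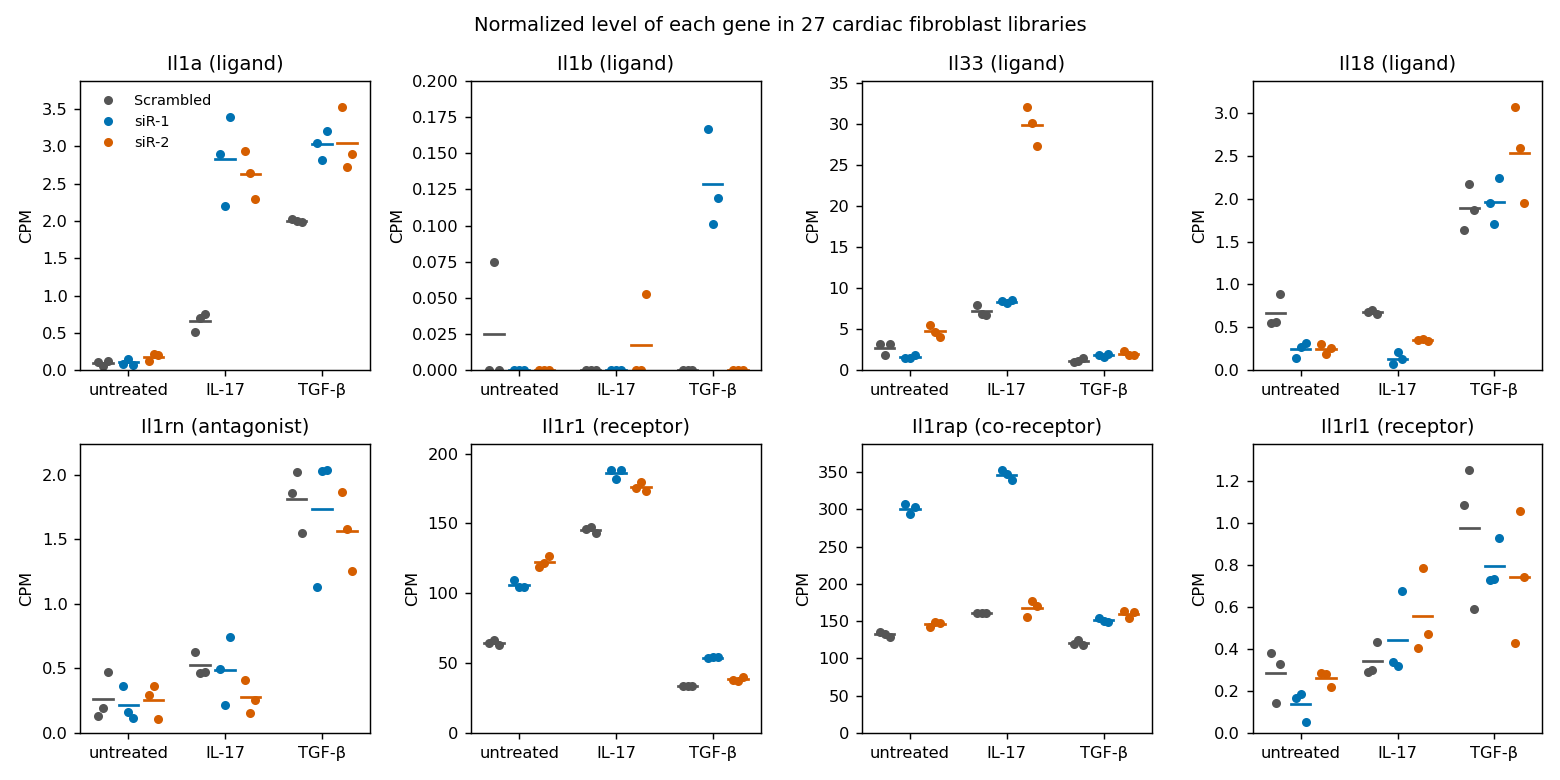
Level of each gene (CPM, axis from 0) in the 27 CF libraries by condition and siRNA, with points for libraries and short lines for means of 3. Il33 stands out with siR-2 under IL-17 at 27.3 to 32.0 CPM, and Il1rap with siR-1 in untreated and IL-17 cells at 293 to 353 CPM.

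Il1a, the alarmin ligand of IL1R1, was near the detection floor in untreated cells and was raised by both stimuli. In untreated cells its level was 0.107, 0.0584 and 0.120 CPM with Scrambled, 0.0883, 0.152 and 0.0715 CPM with siR-1, and 0.121, 0.212 and 0.209 CPM with siR-2. Only 2 of these 9 libraries, both with siR-2, were above 18 estimated counts, which were taken as 3 read pairs, and no change was called. With IL-17 it was 0.517, 0.699 and 0.755 CPM with Scrambled, at least 4.45-fold above untreated cells taken at the floor (edgeR adjusted p = 3.40e-07). Under IL-17 it reached 2.90, 2.196 and 3.39 CPM with siR-1 and 2.93, 2.65 and 2.29 CPM with siR-2. These groups lay above Scrambled without overlap and overlapped each other, at 4.31-fold with siR-1 (log2 2.09, SE 0.21, edgeR adjusted p = 3.01e-07) and 3.99-fold with siR-2 (log2 1.97, SE 0.21, edgeR adjusted p = 3.55e-07).

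With TGF-β, Il1a stood at 2.02, 1.99 and 1.99 CPM with Scrambled, at least 13.5-fold above untreated cells at the floor (edgeR adjusted p = 2.35e-12). It was 3.05, 2.82 and 3.20 CPM with siR-1 and 3.52, 2.72 and 2.89 CPM with siR-2. Both groups lay above Scrambled and overlapped each other, with log2 fold changes of 0.60 (edgeR adjusted p = 0.00625) and 0.61 (edgeR adjusted p = 0.00409). Both were close to the 1.5-fold threshold, and were under it without TGF-β siR-1 replicate 3 (log2 0.55) and without siR-2 replicate 1 (log2 0.49). The difference of the siR-1 effect on Il1a between IL-17 and untreated cells was called (edgeR adjusted p = 0.0149), but both untreated groups were at the floor, so its size is not given. This call was lost when the estimated counts were divided by 6 (edgeR adjusted p = 0.380). It was also lost in 5 of 12 refits without 1 library, untreated Scrambled 1 or 3, untreated siR-1 1 or 3 or IL-17 siR-1 3 (edgeR adjusted p of 0.0511 to 0.0737). The siR-2 difference was not called (edgeR adjusted p = 0.344).

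Il1b, the other agonist of IL1R1, was not detectable above the floor in any CF library. It was at 0 estimated counts in 22 of the 27 libraries, and the 5 others held 6, 9, 11, 13 and 18. The TGF-β cells with siR-1 held 18, 11 and 13, and edgeR called Il1b there (adjusted p = 0.0332), with siR-2 against siR-1 (adjusted p = 0.0334) and in the difference between TGF-β and untreated cells (adjusted p = 0.0467). Without any 1 of the 6 libraries compared, neither of the first 2 calls was made (edgeR adjusted p of 0.0896 to 0.150 and 0.0894 to 0.146), and the third was made in 2 of 12 such refits. Both groups of these comparisons were at or under 18 estimated counts, so no fold is given.

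Il33, the alarmin ligand of ST2, moved in opposite directions with the stimuli. In untreated cells it was at 3.14, 1.87 and 3.18 CPM with Scrambled, at 1.54, 1.52 and 1.87 CPM with siR-1, and at 5.47, 4.63 and 4.07 CPM with siR-2. The siR-1 libraries lay below and the siR-2 libraries above Scrambled, although Scrambled replicate 2 and the highest siR-1 library were nearly level. Neither difference reached a log2 of 1, at -0.74 (SE 0.20, edgeR adjusted p = 0.00572) and 0.77 (SE 0.19, edgeR adjusted p = 0.00258). Of all genes, 39.9% and 49.3% passed on adjusted p alone in these comparisons. Between the siRNAs Il33 was called, with siR-2 2.88-fold above siR-1 (edgeR adjusted p = 6.09e-06).

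With IL-17, Il33 was at 8.00, 6.91 and 6.76 CPM with Scrambled, at 8.44, 8.14 and 8.52 CPM with siR-1 and at 32.0, 30.2 and 27.3 CPM with siR-2. Scrambled cells were 2.65-fold above untreated ones (log2 1.40, SE 0.15, edgeR adjusted p = 7.20e-07). The siR-2 libraries stood far above both other groups, 4.13-fold over Scrambled (log2 2.03, SE 0.08, edgeR adjusted p = 8.67e-13). The siR-1 libraries were above Scrambled by a log2 of 0.20, which was not called (edgeR adjusted p = 0.0505). The siR-2 effect exceeded that in untreated cells by 1.26 on the log2 scale (SE 0.21, edgeR adjusted p = 0.00107).

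With TGF-β, Il33 was at 0.994, 1.07 and 1.47 CPM with Scrambled, 0.43 of the untreated level (log2 -1.21, SE 0.21, edgeR adjusted p = 1.53e-05). It was at 1.83, 1.64 and 1.99 CPM with siR-1 and at 2.35, 1.82 and 1.80 CPM with siR-2, both above Scrambled and overlapping each other. The log2 fold changes were 0.63 (edgeR adjusted p = 0.0340) and 0.76 (edgeR adjusted p = 0.00918). The siR-1 call was lost without TGF-β Scrambled replicate 1 or 2 or siR-1 replicate 1 or 3 (edgeR adjusted p of 0.0838 to 0.134), and the siR-2 call without siR-2 replicate 1 (edgeR adjusted p = 0.0577). The siR-1 effect was 1.36 higher on the log2 scale with TGF-β than in untreated cells (SE 0.29, edgeR adjusted p = 0.00112), since siR-1 libraries lay below Scrambled in untreated cells and above it with TGF-β.

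Il18, a ligand matured by caspase-1, was lower with the siRNAs in untreated and IL-17 cells. Among Scrambled cells it was higher with TGF-β than in untreated ones. In untreated cells it was at 0.554, 0.559 and 0.890 CPM with Scrambled, at 0.141, 0.276 and 0.322 CPM with siR-1 and at 0.302, 0.194 and 0.261 CPM with siR-2. Both siRNA groups lay below Scrambled, with log2 fold changes of -1.44 (SE 0.41, edgeR adjusted p = 0.00914) and -1.42 (SE 0.41, edgeR adjusted p = 0.00782). Both calls were lost without untreated Scrambled replicate 3, the highest library (edgeR adjusted p = 0.0641 and 0.0564).

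With IL-17, Il18 was at 0.684, 0.699 and 0.656 CPM with Scrambled, which was not called against untreated cells (log2 0.02, edgeR adjusted p = 0.992). It was at 0.0730, 0.210 and 0.127 CPM with siR-1 (log2 -2.32, SE 0.41, edgeR adjusted p = 1.79e-04), of which 1 library was above the floor. It was at 0.351, 0.359 and 0.342 CPM with siR-2 (log2 -0.97, SE 0.38, edgeR adjusted p = 0.0440). The 3 groups did not overlap. The siR-2 call was lost without any one of the 6 libraries (edgeR adjusted p of 0.0828 to 0.103) and without the filter on low counts (0.0815).

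With TGF-β, Il18 was at 1.63, 2.17 and 1.87 CPM with Scrambled, 2.83-fold above untreated cells (log2 1.495, SE 0.27, edgeR adjusted p = 4.27e-05). It was at 1.95, 1.70 and 2.24 CPM with siR-1 and at 3.06, 2.59 and 1.95 CPM with siR-2, which overlapped Scrambled and were not called. The siR-1 and siR-2 effects differed from those in untreated cells by 1.49 (SE 0.39, edgeR adjusted p = 0.00773) and 1.82 (SE 0.39, edgeR adjusted p = 8.06e-04) on the log2 scale. The sum of the macrophage markers was 168 CPM in TGF-β and 67.7 CPM in untreated Scrambled cells, of which Lyz2 made up 113 and 39.1 CPM, while C1qa, C1qb and C1qc were called lower. Their part in the levels of Il18 and Il1rn was not tested.

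Il1rn, the antagonist, was low in untreated cells and raised with TGF-β. It was at 0.132, 0.192 and 0.473 CPM in untreated and at 0.626, 0.466 and 0.476 CPM in IL-17 Scrambled cells, which overlapped (log2 0.97, edgeR adjusted p = 0.331). With TGF-β it was at 1.86, 2.02 and 1.55 CPM, above every untreated library, at 6.82-fold (log2 2.76, SE 0.47, edgeR adjusted p = 2.47e-05). No siRNA comparison of Il1rn was called. Its lowest adjusted p was with siR-2 under IL-17, at 0.412, 0.158 and 0.255 CPM, all below Scrambled (log2 -0.94, edgeR adjusted p = 0.100), and it passed without siR-2 replicate 1 (log2 -1.36, edgeR adjusted p = 0.0403).

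Il1r1, the signaling receptor of IL-1, was raised with IL-17 and lay above Scrambled with both siRNAs in all 3 tables. Of these siRNA effects only that of siR-1 with TGF-β was called. On adjusted p alone, 39.9% of all genes passed with siR-1 and 49.3% with siR-2 in untreated cells. These shares were 42.3% and 50.6% with IL-17 and 23.1% and 29.9% with TGF-β. In untreated cells it was at 64.0, 66.7 and 62.7 CPM with Scrambled, at 110, 105 and 104 CPM with siR-1 and at 118, 122 and 127 CPM with siR-2. The 3 groups did not overlap, and the log2 fold changes of 0.71 (SE 0.037, edgeR adjusted p = 1.75e-10) and 0.91 (SE 0.037, edgeR adjusted p = 3.22e-12) were under the threshold of 1. With IL-17 it was at 146, 148 and 143 CPM with Scrambled, 2.26-fold above untreated cells (log2 1.17, SE 0.032, edgeR adjusted p = 1.36e-19). The siRNA groups with IL-17 were at 188, 182 and 188 CPM and at 175, 180 and 173 CPM. Both lay above Scrambled by less than the fold threshold, with log2 0.35 (edgeR adjusted p = 1.56e-08) and 0.25 (edgeR adjusted p = 3.99e-07).

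With TGF-β, Il1r1 was at 33.4, 33.7 and 33.4 CPM with Scrambled, 0.519 of the untreated level and just under the threshold (log2 -0.95, SE 0.039, edgeR adjusted p = 2.53e-16). It rose with siR-1 to 53.3, 54.1 and 54.3 CPM (log2 0.69, SE 0.047, edgeR adjusted p = 1.06e-08), and was at 37.8, 37.4 and 40.2 CPM with siR-2 (log2 0.20, edgeR adjusted p = 0.00311). The siR-2 effect on Il1r1 was smaller than in untreated cells with IL-17, by -0.64 on the log2 scale (edgeR adjusted p = 3.87e-10), and with TGF-β, by -0.72 (edgeR adjusted p = 2.87e-10). The siR-1 effect was smaller with IL-17, by -0.37 (edgeR adjusted p = 8.83e-06), and with TGF-β the difference was -0.03 (edgeR adjusted p = 0.794). On adjusted p alone, such differences passed in 2.13% (siR-1) and 1.89% (siR-2) of all genes with IL-17. With TGF-β they passed in 19.6% and 30.2%.

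Il1rap, the shared co-receptor, rose with siR-1 in untreated and IL-17 cells. In untreated cells it was at 136, 132 and 129 CPM with Scrambled, at 307, 293 and 303 CPM with siR-1 and at 142, 148 and 148 CPM with siR-2. The siR-1 libraries were at 2.27-fold (log2 1.18, SE 0.031, edgeR adjusted p = 5.43e-14), and the siR-2 libraries lay just above Scrambled (log2 0.12, edgeR adjusted p = 0.00305). With siR-2, 49.3% of all genes passed on adjusted p alone. With IL-17 it was at 161, 161 and 161 CPM with Scrambled, at 353, 348 and 339 CPM with siR-1 and at 155, 177 and 170 CPM with siR-2. Here siR-1 was at 2.16-fold (log2 1.099, SE 0.036, edgeR adjusted p = 2.47e-13) and siR-2 overlapped Scrambled (log2 0.04, edgeR adjusted p = 0.367).

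With TGF-β, Il1rap was at 119, 124 and 118 CPM with Scrambled, at 154, 150 and 149 CPM with siR-1 and at 164, 154 and 163 CPM with siR-2. Both siRNA groups were above Scrambled by less than the threshold, with log2 0.33 (edgeR adjusted p = 2.76e-06) and 0.41 (edgeR adjusted p = 1.11e-07). On adjusted p alone, 23.1% and 29.9% of all genes passed in these comparisons. The siR-1 effect was thus smaller with TGF-β than in untreated cells, by -0.86 on the log2 scale (SE 0.047, edgeR adjusted p = 5.61e-12), and the siR-2 effect larger by 0.27 (SE 0.047, edgeR adjusted p = 7.97e-05). Such differences passed on adjusted p alone in 19.6% (siR-1) and 30.2% (siR-2) of all genes. The stimuli moved Il1rap by less than the threshold, with log2 0.28 for IL-17 (edgeR adjusted p = 9.93e-07) and -0.14 for TGF-β (edgeR adjusted p = 8.84e-04).

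Il1rl1, the IL-33 receptor ST2, stayed low in CFs. It was at 0.380, 0.142 and 0.329 CPM in untreated and at 0.292, 0.300 and 0.435 CPM in IL-17 Scrambled cells, which overlapped. With TGF-β it was at 1.09, 1.25 and 0.589 CPM, above every untreated library, at 3.44-fold (log2 1.78, SE 0.45, edgeR adjusted p = 0.00137). It was not called with the replicate number as a block (log2 1.27, edgeR adjusted p = 0.0763). No siRNA effect on Il1rl1 was called, and the siRNA groups overlapped Scrambled in each table.

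**Figure D3:**
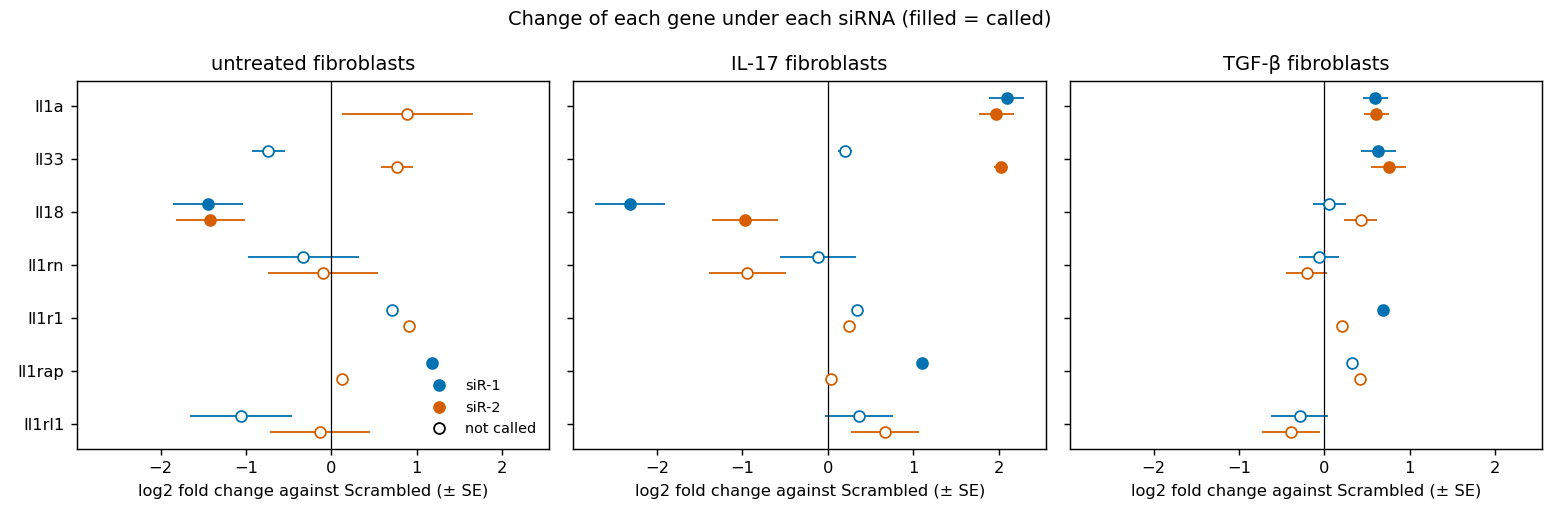
Log2 fold change of each gene with siR-1 or siR-2 against Scrambled (points, with bars for ± SE) in untreated, IL-17 and TGF-β CFs, filled where called. Il1b is not shown and Il1a with siR-1 in untreated cells is not drawn, since both groups were at the floor, as was Scrambled for Il1a with siR-2 there; Il1a lies at 2.09 and 1.97 with IL-17, and Il18 to the left of 0 in untreated and IL-17 cells.

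The siRNAs were also set against each other. In untreated cells Il33 was higher and Il1rap lower with siR-2 than with siR-1, 2 of 7 members tested, against 6.65% of all genes called. With IL-17, Il33 and Il18 were higher and Il1rap lower with siR-2, 3 of 7, against 15.7%. The log2 values with IL-17 were 1.82 for Il33 (edgeR adjusted p = 6.17e-12), 1.34 for Il18 (edgeR adjusted p = 0.0122) and -1.06 for Il1rap (edgeR adjusted p = 2.61e-13). The Il18 call was lost with the 2 siRNA groups fitted alone (edgeR adjusted p = 0.0547) and without IL-17 siR-1 replicate 1 (edgeR adjusted p = 0.0514). With TGF-β the 1 call among 8 was Il1b, at the floor (3.96%), and Il1r1 was lower with siR-2 by a log2 of -0.49, under the threshold (edgeR adjusted p = 8.58e-07).

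Differences of the siRNA effect between a stimulus and untreated cells were called for 1 of 7 members with siR-1 and IL-17, Il1a with its untreated groups at the floor (0.189% of all genes), and for 1 of 7 with siR-2 and IL-17, Il33 (0.165%). With TGF-β, 3 of 8 were called with siR-1, Il33, Il18 and Il1b at the floor (2.36%), and 1 of 8 with siR-2, Il18 (5.09%).

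Among other genes of the family, the receptors and binding proteins were followed as a list of 8. Il1rl2, a receptor of IL-36, averaged 26.7, 31.1 and 24.9 CPM in untreated, IL-17 and TGF-β Scrambled cells. Il18r1, the ligand-binding receptor chain of IL-18, was at 0 in the untreated and IL-17 Scrambled libraries and at a mean of 0.0913 CPM with TGF-β. Il18bp, a soluble trap of IL-18, was 10.5-fold higher with TGF-β, at 45.4 against 4.31 CPM (edgeR adjusted p = 9.11e-15), and the decoy receptor Il1r2 was also called higher with TGF-β, 2 of 6 tested against 21.5% of all genes. Against Scrambled, siR-1 called 0 of 5 in untreated (4.76% of all genes) and 0 of 5 in IL-17 cells (13.5%). With siR-2 the inhibitory receptor Sigirr was lower in untreated cells, 1 of 5 (10.7%), and Il18bp and Il18rap were lower with IL-17, 2 of 5 (21.7%). With TGF-β, Il18rap, the accessory chain of the IL-18 receptor, was lower with both siRNAs, 1 of 6 each (4.36% and 7.51%). Of 10 other ligands listed, 5 were in the tables under the names searched, and none of these was called.

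Of 14 inflammasome and ligand processing genes, 11 were tested in each comparison. The adaptor Pycard was lower with siR-1 in untreated cells, at 1.90 against 5.69 CPM (log2 -1.59, edgeR adjusted p = 9.43e-08), and with IL-17, at 1.79 against 5.13 CPM, each the 1 call of the list (4.76% and 13.5% of all genes). With siR-2 the inflammatory caspases Casp1 and Casp4 were higher in untreated and IL-17 cells, Casp4 at 32.5 against 11.6 CPM in untreated cells (log2 1.46, edgeR adjusted p = 4.97e-11), and 1 gene of the list was lower in each, 3 of 11 both times (10.7% and 21.7%). With TGF-β, siR-1 raised Casp1 and lowered Pycard, and siR-2 lowered Pycard and Nlrc4, 2 of 11 each (4.36% and 7.51%). Casp1 and Casp4 were higher with each stimulus, Casp4 at 29.5 CPM with IL-17 and 68.4 CPM with TGF-β, and Txnip was lower with TGF-β, which makes 2 of 11 with IL-17 (1.39%) and 3 of 11 with TGF-β (21.5%). The median log2 value of the list lay between 0.03 and 0.25 in the 6 siRNA comparisons, against -0.02 to 0.01 over all genes.

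All 14 signal adaptors and kinases were tested. Myd88, the adaptor of the receptors, averaged 36.9, 47.1 and 53.2 CPM in untreated Scrambled, siR-1 and siR-2 cells and was not called. Irak3, an inhibitory kinase of this pathway, rose with siR-2 in untreated cells and with both siRNAs under IL-17, at 10.4, 19.7 and 29.5 CPM in the order Scrambled, siR-1 and siR-2. Map3k8 rose with siR-2 in untreated cells and with both stimuli, Irak2 was lower with siR-2 under IL-17, and with TGF-β neither siRNA called a gene of the list (4.36% and 7.51% of all genes). In untreated cells siR-1 called 0 of 14 (4.76%) and siR-2 called 2 (10.7%), and with IL-17 they called 1 (13.5%) and 2 (21.7%). The stimuli called 1 of 14 with IL-17 (1.39%) and 3 with TGF-β (21.5%).

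Genes known to respond to IL-1 were a list of 20, whose median lay above that of all genes in each comparison with Scrambled. The list was set with earlier results of these data known. It holds genes that the paper reports as raised by IAMP knockdown, such as Il6 and Mmp3. Its shift is therefore a description, and whether IL-1 took part was not tested. In untreated cells siR-1 raised 7 (4.76% of all genes called) and siR-2 raised 5 (10.7%) of 18 tested and neither lowered any, with medians of 0.63 and 0.74 on the log2 scale against -0.02 over all genes in both. With IL-17, 13 of 20 were higher with siR-1 (13.5% called, median 1.05, all genes -0.0026), and 12 were higher and 1 lower with siR-2 (21.7% called, median 0.79, all genes -0.02), the lower one being the chemokine Cxcl1. With TGF-β, 11 and 10 of 20 were higher and 0 lower (4.36% and 7.51% called, medians 0.72 and 0.58, all genes 0.0003 and 0.01). With the stimuli alone, IL-17 raised 17 of 20 (1.39% called, median 3.59), and TGF-β raised 18 and lowered 1, Ptgs2 (21.5% called, median 3.31).

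Il6, the chemokine Ccl7 and the matrix metalloproteinase Mmp3 were called with both siRNAs in all 3 tables. Il6 averaged 19.4, 49.0 and 134 CPM in untreated Scrambled, siR-1 and siR-2 cells, 262, 524 and 786 CPM with IL-17, and 82.1, 143 and 156 CPM with TGF-β. Ccl7 averaged 23.6, 117 and 115 CPM in untreated cells, 256, 891 and 727 CPM with IL-17, and 593, 1215 and 1444 CPM with TGF-β. Mmp3 averaged 395, 1378 and 1557 CPM in untreated cells.

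Cxcl5, Cxcl1, Cxcl2, Csf2 and Sod2 were called with both siRNAs, in the same direction, in 2 tables each. Cxcl5, a neutrophil chemokine, averaged 29.2, 282 and 180 CPM in untreated cells. Cxcl1 went in opposite directions under IL-17, at 321, 634 and 200.5 CPM in the order Scrambled, siR-1 and siR-2 (log2 0.97 and -0.70, edgeR adjusted p = 3.02e-12 and 8.09e-11). Csf2, the cytokine GM-CSF, averaged 2.38, 12.2 and 4.40 CPM under IL-17, in the order Scrambled, siR-1 and siR-2.

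**Figure D4:**
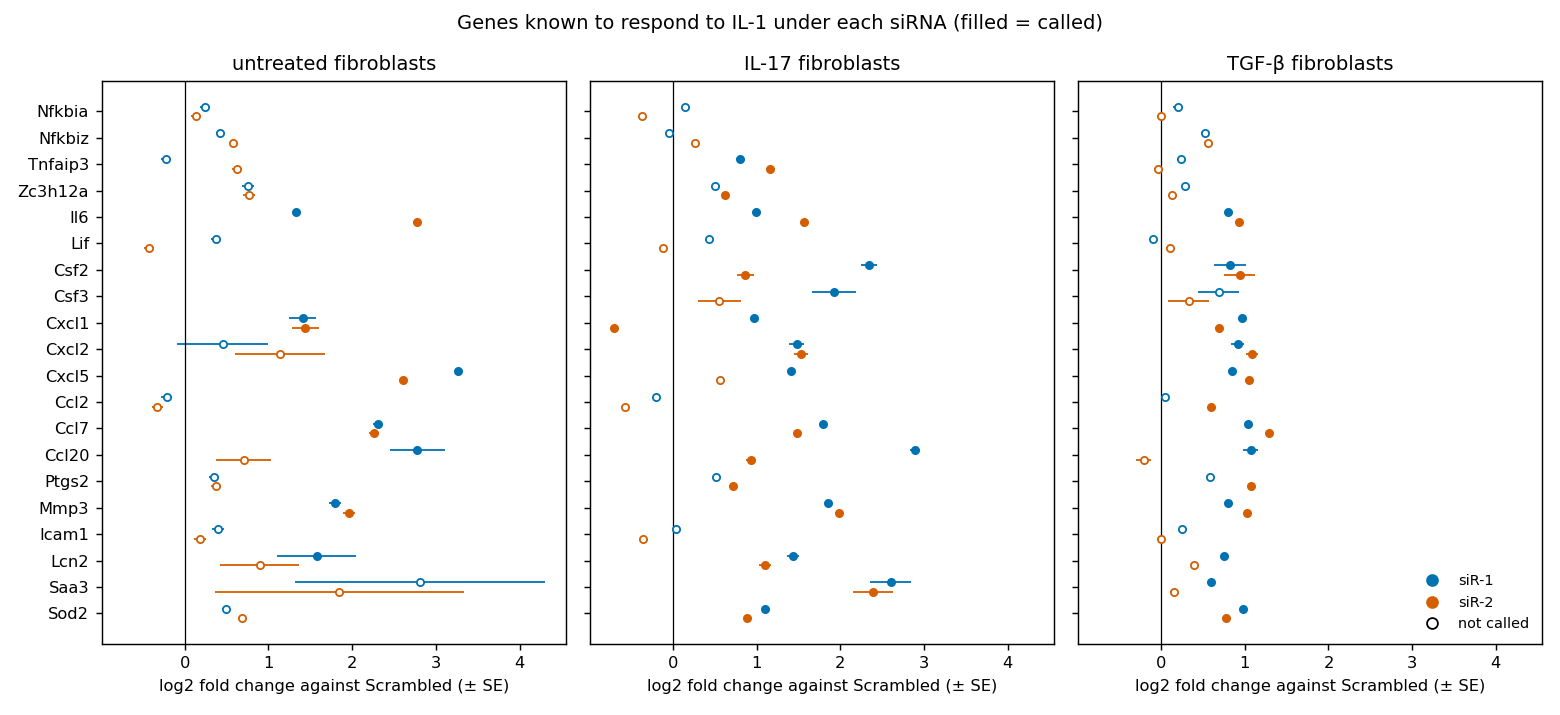
Log2 fold change of 20 genes known to respond to IL-1 with siR-1 or siR-2 against Scrambled (points, with bars for ± SE) in untreated, IL-17 and TGF-β CFs, filled where called. Genes not tested are not drawn. Most points lie right of 0, with 13 called higher for siR-1 and 12 for siR-2 under IL-17, and Cxcl1 left of 0 with siR-2 under IL-17. The genes were listed with earlier results of these data known.

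Over the 27 CF libraries, the genes whose levels ran most like those of a member were ranked by Pearson's r of log2(CPM + 0.5) among 13329 genes that averaged 1 CPM or more. These libraries share tables, stimuli and siRNAs, so r is a description. Nearest to Il1a were Cxcl2 (0.967), Ptges (0.961) and Gm7818 (0.958). Nearest to Il33 were Malt1 (0.971), Kcnk10 (0.966) and Slc25a25 (0.943). Nearest to Il1r1 were Hivep2 (0.988), Cxadr (0.973) and Sik1 (0.969), and nearest to Il1rap were Tlr4 (0.945), Dnajc10 (0.934) and Uggt1 (0.933). Among the members, Il1r1 and Il33 gave 0.799, Il1r1 and Il1rap 0.569, and Il1a and Il1r1 -0.186.

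In hearts, 4 of the 8 genes were high enough to be tested and 0 were called, against 0% of all genes. In edgeR 601 of 16675 genes had an unadjusted p under 0.05, and DESeq2 called 2 genes, neither of the family. Per kilobase, Il1r1 led in Het hearts at 1.81 ± 0.241 CPM per kb (SD, n = 4), before Il33 at 0.684 ± 0.143, and Il1rap was at 0.188 ± 0.0375 CPM per kb. Il1r1 was at 10.0, 10.4, 12.4 and 13.2 CPM in Het and at 10.5, 14.6, 10.9 and 13.3 CPM in KO hearts. Il1rap was at 2.34, 1.52, 2.204 and 2.48 CPM in Het and at 2.61, 2.28, 2.22 and 2.198 CPM in KO hearts, and Il1rl1 between 0.551 and 0.913 CPM in both groups. These 3 genes overlapped between genotypes.

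Il33 was at 2.55, 1.70, 1.65 and 2.00 CPM in Het and at 1.48, 1.31, 1.40 and 1.59 CPM in KO hearts. The 4 KO hearts lay below the 4 Het hearts, with 31 to 37 counts against 39 to 61. How many of all genes separate in this way was not counted. The log2 fold change of -0.45 (SE 0.17) did not pass (edgeR adjusted p = 1.0). In a two-sided exact permutation test over 70 regroupings of the 8 hearts p was 0.0286 for Il33 and 0.486 to 1 for the other 7 genes. These p-values are not adjusted for the 8 genes tested. The Il33 value is the smallest these groups allow. Any gene without overlap gets it, so it only restates the separation. Il1a, Il1b, Il1rn and Il18 held at most 6 counts in any heart, and differences in them were not detectable at this depth. The 12 macrophage markers summed to 248 CPM in Het hearts, against 239.6 CPM in the KO group, and the 9 fibroblast markers to 807 and 813 CPM.

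**Figure D5:**
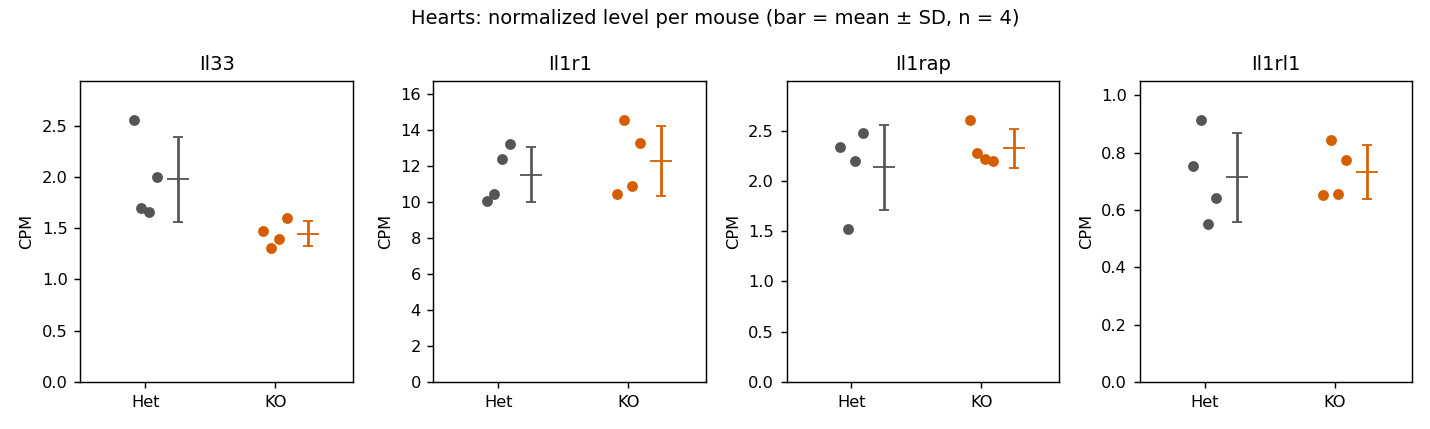
Level of Il33, Il1r1, Il1rap and Il1rl1 (CPM, axis from 0) in each heart, with bars for the mean ± SD of 4 Het and 4 KO mice. No gene shown was called. The genotypes overlap except for Il33, where KO hearts lie between 1.31 and 1.59 CPM and Het hearts between 1.65 and 2.55 CPM. The share of all genes that separate in this way was not counted.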

How the data were processed

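RNA enriched for poly(A) on oligo(dT) beads was sequenced in 27 libraries of mouse CFs and 8 of mouse hearts. Per the labels, the authors used cutadapt, HISAT2, StringTie and DESeq2 with GRCm38 (the strand setting is not given in the sources used here, so overlapping opposite-strand genes cannot be told apart). The deposited CF values are estimated counts per gene, the deposited heart values counts. Among genes seen in 1 library, the most frequent value was 6 in the CF tables. It was held by 21.9% of these genes in untreated, 22.0% in IL-17 and 17.0% in TGF-β cells. On this estimate 3 read pairs were taken as 18 estimated counts, the detection floor. In hearts the most frequent value was 1 (57.1% of such genes), and the floor was 3 counts.

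Each table was fitted on its own with edgeR 4.0.16 in R 4.3.3 (estimated counts rounded, TMM, filterByExpr, robust quasi-likelihood), and stimuli and their differences across 2 tables fitted together. p-values were adjusted over all genes tested. CPM used TMM factors over all 27 CF libraries, or over the 8 hearts. Heart columns hold a genotype and an animal number that no label gives, so they were mapped to genotype only. Pathway genes are named where both siRNAs called them in the same direction in at least 2 tables; other pathway genes, and values for them, were chosen after their values were seen. The members and lists were chosen with earlier results of these data known. Alternatives were DESeq2 1.42.0, other size factors, filters and thresholds, a replicate block, division by 6, fits of 2 groups and leaving out each library. The scripts were tested on simulated data.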

Additional observations from a re-analysis of the deposited data

Results flagged for a closer look

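Among 16 sets of 4 hearts (8 genes in each genotype), 2 had 1 heart apart from the other 3 by Dixon's ratio. The ratio is 1 whenever 3 of 4 hearts are at 0, so the rate of about 1 in 20 that chance gives does not apply to them. Il1a was at 0.125 CPM in 1 Het heart and at 0 in the others (ratio 1), and Il18 at 0.217 CPM in 1 KO heart and at 0 in the others (ratio 1). These are 3 and 5 counts.

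Effects of an siRNA that differed between stimulated and untreated CFs passed edgeR's test of the difference (adjusted p at most 0.05) for these members, where the stimulus and the table cannot be told apart. Of all genes, 2.13% passed this rule with siR-1 and 1.89% with siR-2 for IL-17. For TGF-β 19.6% and 30.2% passed it, so a member passing there is no rare event. Between IL-17 and untreated cells, the siR-1 effect differed by a log2 of 0.943 for Il33 (edgeR adjusted p = 0.0212) and -0.368 for Il1r1, and the siR-2 effect by 1.26 for Il33 and -0.643 for Il1r1. The siR-1 value of Il33 lost its adjusted p in 8 of 12 refits without 1 library (edgeR adjusted p of 0.0516 to 0.0845). Between TGF-β and untreated cells, the siR-1 effect differed by 1.36 for Il33, 1.49 for Il18 and -0.857 for Il1rap, and the siR-2 effect by 1.82 for Il18, -0.723 for Il1r1 and 0.27 for Il1rap. For Il1a the fitted difference with siR-1 and IL-17 was 1.98, which is no measure of size, since both untreated groups were at the floor. For Il1b the fitted difference with siR-1 and TGF-β was 11.4, likewise no fold, since all its libraries were at or under the floor.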

How the results depend on the processing

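The following tally leaves out Il1b, and Il1a for the siRNA comparisons in untreated cells. Without 1 library, the Il1b calls with siR-1 under TGF-β and between siRNAs were made in 0 of 6 refits each. The call of its siR-1 difference with TGF-β was made in 2 of 12. Over 106 results of single members, 1565 refits were made, of which 1526 stayed on the same side of an edgeR or DESeq2 adjusted p of 0.05 whatever their fold, 32 lost it and 7 gained it. The sign differed from the reported one in 49 refits of 25 results, 48 of them without 1 library and most often for Il1rn (18) and Il1rl1 (12), with an adjusted p above 0.05 before and after in each. Other size factors moved a member by at most 0.0155 on the log2 scale. With a 1.5-fold threshold in place of 2-fold, genes called in untreated cells went from 936 to 2374 with siR-1 (members 2 to 4), from 2095 to 4156 with siR-2 (members 1 to 3) and from 1308 to 3121 between siRNAs. For the stimuli they went from 296 to 653 with IL-17 and from 4634 to 7514 with TGF-β. For differences between IL-17 and untreated cells they went from 40 to 95 for siR-1 and from 35 to 103 for siR-2 (members 1 to 2 in both), and between TGF-β and untreated cells from 508 to 1206 for siR-1 and from 1095 to 2496 for siR-2 (members 1 to 2). With a 2-fold threshold in place of 1.5-fold, IL-17 counts went from 2697 to 1158, from 4323 to 2249 and, between siRNAs, from 3122 to 1284. TGF-β counts went from 867 to 273 (members 4 to 1), from 1494 to 587 (members 2 to 0) and from 787 to 230. The 1 member left with siR-1 was Il1b, which was at the floor. With only genes at a mean of at least 1 CPM, fewer genes were tested, and counts in untreated cells were 536 with siR-1 (members 1), 1371 with siR-2 (members 0) and 813 between siRNAs, and 3038 for TGF-β (members 3). Il1b, the 1 member called between siRNAs with TGF-β, was not tested under that filter or division by 6, had no adjusted p in DESeq2 and was not called with no filter or the replicate block (members 0 in each). The same held for its call with siR-1 against Scrambled (edgeR adjusted p = 0.0591 with no filter and 0.0856 with the block). Division by 6 left 0 members for the siR-1 difference between IL-17 and untreated cells. In hearts DESeq2 called 2 genes, Fyb (log2 3.66) and Heg1 (log2 -1.003). The causes were not tested.

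Leaving out 1 library gave 1 to 2 members for siR-1 and 0 to 1 for siR-2 in untreated cells, 1 to 3 for siR-1, 0 to 2 for siR-2 and 0 between siRNAs under TGF-β, 0 to 2 for the siR-1 difference with IL-17, and 0 to 1 genes in hearts (Mapt without Het replicate 1, and Fyb, Gm8941 and Gm7030 without KO replicates 1, 2 and 4). These heart numbers only tell the columns apart, since no label ties a column to a numbered sample. The siR-1 difference of Il33 with IL-17 lost its adjusted p in 8 refits without 1 library (edgeR adjusted p of 0.0516 to 0.0845). Il33 with siR-1 under IL-17 passed the adjusted p without Scrambled replicate 1 (edgeR adjusted p = 0.0128) and with only genes at a mean of at least 1 CPM (0.0350), both times under the fold threshold.

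Replicate numbers did not pair the CF libraries: deviations of libraries with the same number correlated at -0.221 to 0.154 in untreated, -0.143 to 0.178 in IL-17 and -0.327 to 0.119 in TGF-β cells. With the replicate block, 902 genes in place of 936 were called for siR-1 in untreated cells, 2601 in place of 2697 with IL-17 and 827 in place of 867 with TGF-β. With the block, Il18 with siR-2 under IL-17 (edgeR adjusted p = 0.0596) and Il1rl1 with TGF-β (log2 1.27, edgeR adjusted p = 0.0763) were not called, and Il33 with siR-1 under IL-17 passed the adjusted p (0.0327) under the fold threshold. For hearts, No paired analysis was possible because no label ties the animal numbers of the columns to replicates. Depth limits Il1b in CFs and Il1a, Il1b, Il1rn and Il18 in hearts.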
